A study of Homo sapiens with 6 samples.

Results

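The NRF2, glutathione, iron and peroxide defence genes are 41 genes chosen by symbol, out of 28265 gene rows in the count tables. Every one of the 41 symbols was found, and 39 passed the filter on low counts. RNA sequencing of polyA transcripts compared MDA-MB-231, a long-established human cell line from triple-negative breast cancer, with MDA-MB-231GlnIND, a glutamine-independent derivative of it. The medium of parental cells was RPMI 1640, supplemented with fetal bovine serum at 10%. The derivative grew for more than 6 weeks in RPMI 1640 without glutamine, with 10% dialysed fetal bovine serum. Each group had 3 libraries. Cell population, glutamine supply and serum type differed together and cannot be told apart, and the labels do not say whether GlnIND cells are a pool or a single clone, or whether libraries came from separate cultures. P-values therefore speak only of how far these libraries scatter, which can be technical scatter.

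NRF2, encoded by NFE2L2, is a transcription factor that KEAP1 holds back by sending it for degradation. Oxidants and electrophiles modify KEAP1, and NRF2 then pairs with small MAF proteins at antioxidant response elements, DNA sites that the repressor BACH1 also occupies. Its targets supply cystine and glutathione, regenerate thioredoxin, make NADPH, store iron and reduce reactive carbonyls. Cystine enters through SLC7A11 in exchange for glutamate, which cells make largely from glutamine, so this pathway meets glutamine metabolism at the cell membrane. NRF2 is controlled mainly as a protein, so its own transcript does not give its activity.

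Total counts per library were 18256219 to 21741371 in the parental group and 21276815 to 24594248 in the GlnIND group. Markers listed for the line were present, with VIM, CD44, AXL, CAV1 and EGFR at 321 CPM (counts scaled by the library total) or more in every library. ESR1, PGR and CDH1 were at 0.438 CPM or less. Markers of leukocytes (PTPRC), endothelium (PECAM1) and fibroblasts (COL1A1) summed to 5.92 to 7.72 CPM in parental and 17.1 to 17.9 CPM in GlnIND libraries. PTPRC was at 0 in 2 parental libraries, and the part of these markers in the results was not tested. Parental 1 stood apart from the other parental libraries. The median absolute log2 difference over all tested genes was 0.23 and 0.26 from parental 1 to parental 2 and 3, 0.11 between those 2, and 0.092 to 0.10 between GlnIND libraries. In parental 1, 11 of the 39 tested genes of the set (28.2%) were under 0.8 times the mean of parental 2 and 3, against 3172 of all 13949 tested genes (22.7%). Results are given with all libraries and, where it matters, without parental 1.

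Of the 39 genes tested with edgeR's quasi-likelihood test, 12 were higher and 12 lower in GlnIND cells at a Benjamini-Hochberg adjusted p under 0.05, and 15 were not called. That is 61.5% called, beside 56.3% of all tested genes, 28.4% higher and 27.9% lower. The median log2 fold change was -0.0041 over the set and 0.03 over all tested genes. The libraries of the groups did not overlap for 26 of the 39, 14 higher and 12 lower in GlnIND cells, against 65.0% of all genes (33.7% and 31.3%), and 5 of the 39 were called with more than a 2-fold difference, against 15.1% of all genes. In bulk RNA, fewer cells of a type and less RNA per cell cannot be told apart. The 5 genes were AKR1C1, AKR1C2 and AKR1C3, which rose, and SLC7A11 and TFRC, which fell. The split by direction moved with the scaling. Upper-quartile factors gave 14 higher and 9 lower, and library totals alone gave 15 and 7, where the median of all genes lay at 0.12 and 0.18. Over all genes those gave 4749 higher and 3204 lower, and 5356 and 2810, beside 3965 and 3888 with TMM factors. Removal of the shift shared with neighbouring genes gave 8 higher and 14 lower, with 10 of the 24 calls lost, and removal of a GC trend gave 10 and 15, with 4 lost. Over all genes these gave 3320 higher and 3504 lower, and 4032 and 3562. Without parental 1, the 24 called genes were all called in the same direction, and 9 more were called, 2 higher and 7 lower. In that fit 4601 of all 14232 tested genes were higher and 4679 lower. It leaves out the parental library that stood apart, so its adjusted p-values, here and below, are not comparable with those of all libraries. For NFE2L2 the edgeR adjusted p went from 2.53e-05 to 1.08e-16, while the log2 fold change went from -0.70 to -0.67.

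**Figure D1:**
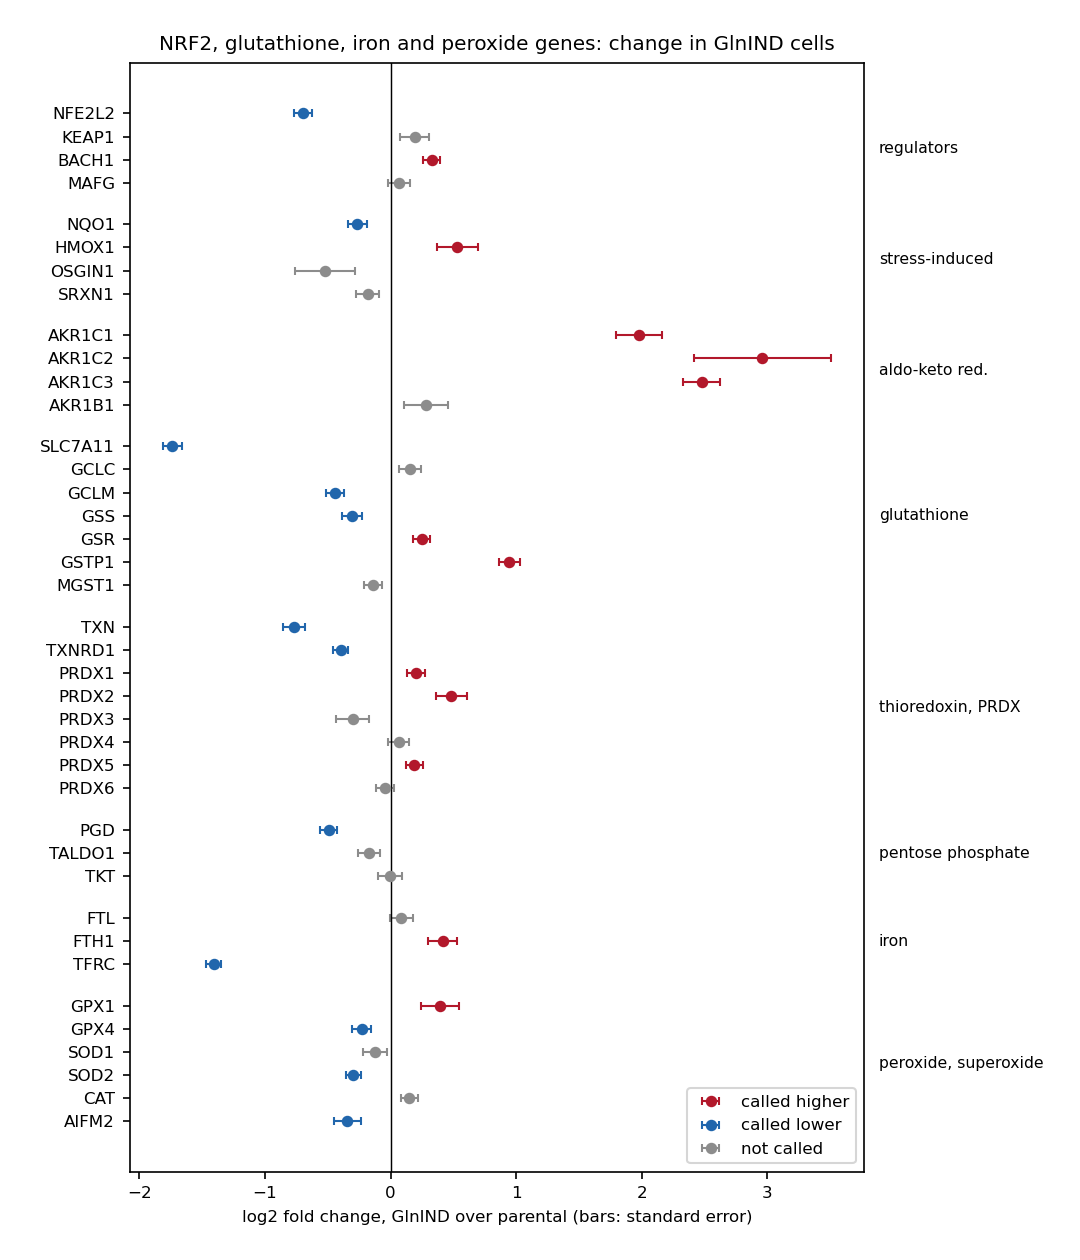
Log2 fold change of GlnIND over parental cells (x axis) for the 39 tested genes, grouped by role (y axis). Points are the fitted change over 3 libraries per group and bars the standard error, coloured by call at an adjusted p under 0.05. The AKR1C genes stand at 1.98 to 2.96, and SLC7A11 and TFRC at -1.74 and -1.41.

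Of the regulators NFE2L2 fell and BACH1 rose, while KEAP1 and MAFG did not pass the test. NFE2L2 was at 178, 164 and 164 CPM, here and below scaled with TMM factors, in parental libraries 1 to 3, and at 106, 108 and 98.1 CPM in GlnIND libraries 1 to 3. All GlnIND libraries lay below all parental libraries. Its log2 fold change was -0.70 (standard error 0.068, edgeR adjusted p = 2.53e-05). BACH1, the repressor that competes for the same sites, was at 71.8, 72.5 and 68.8 CPM in parental and 86.2, 92.0 and 88.9 CPM in GlnIND libraries. The groups did not overlap, with a log2 fold change of 0.33 (standard error 0.066, edgeR adjusted p = 0.00218).

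KEAP1, the adaptor that targets NRF2 for degradation, was at 83.5, 105 and 118 CPM in parental and 123, 116 and 111 CPM in GlnIND libraries. Parental 1 lay below all other libraries, and parental 3 lay within the GlnIND range. The log2 fold change of KEAP1 was 0.19 (standard error 0.11, edgeR adjusted p = 0.178), and 0.052 without parental 1 (adjusted p = 0.417). It passed without parental 3, at 0.28 (adjusted p = 0.0371), and with library totals, at 0.34 (0.0353). MAFG, a small MAF partner of both NRF2 and BACH1, spanned 72.6 to 90.7 CPM in parental and 86.9 to 89.8 CPM in GlnIND libraries (log2 fold change 0.068, edgeR adjusted p = 0.548). Genes along a chromosome can shift together, so the median log2 fold change of up to 40 neighbouring tested genes was computed for each gene. Fewer were used near chromosome ends, 29 for SRXN1 and 34 to 36 for AKR1C1, AKR1C2 and AKR1C3. It was -0.30 around NFE2L2 and -0.43 around BACH1, and with that shift removed NFE2L2 stood at -0.40 (adjusted p = 0.000975) and BACH1 at 0.75 (1.93e-05). In that setting MAFG passed as lower, at -0.36 (0.00863), and KEAP1 stood at 0.098 (0.505). With the GC trend removed BACH1 stood at 0.54 (0.000121) and KEAP1 at 0.013 (0.934).

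The antioxidant response element core was searched as TGACNNNGC on both strands of RefSeq promoter windows (GRCh38.p14, 250 bases before to 50 after the start), which held 32 of the 41 genes. It was found in 6 of these 32 (18.8%), in 13.3% of all 35116 windows, and in 13.9% of those of genes in the count tables. HMOX1, AKR1B10, SLC7A11, GSS, GSR, PRDX1, PRDX6, FTH1 and SOD1 had no window and were not searched. Sites outside the windows were not searched for any gene. Matches lying wholly before the start in the 5 genes that were called are shown, to set each core beside the direction of its gene, with the core in capitals and up to 15 bases on each side, 5′ to 3′ on the strand that carries the core.
GCLM, chr1:93909441-93909479, plus strand: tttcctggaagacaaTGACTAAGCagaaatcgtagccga
GSTP1, chr11:67583731-67583769, plus strand: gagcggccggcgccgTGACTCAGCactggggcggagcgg
TXNRD1, chr12:104215665-104215703, plus strand: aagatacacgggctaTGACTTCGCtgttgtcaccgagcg
PGD, chr1:10398848-10398886, minus strand: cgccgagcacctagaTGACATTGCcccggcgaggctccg
AIFM2, chr10:70132826-70132862, plus strand: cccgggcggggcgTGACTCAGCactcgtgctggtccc
The centre of the core lay 30, 62, 95, 197 and 18 bases before the start in these 5 stretches. Not shown are a match in GPX2 and another core in TXNRD1, TGACGGAGC on the strand opposite to the gene, which reached over the start. GSTP1 and AIFM2 shared all letters of the core, which also holds the AP-1 site TGACTCA. GSTP1 rose and AIFM2 fell, and GCLM, TXNRD1 and PGD fell. A match in these letters describes the window only and is not a measured binding site.

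Among stress-induced targets of NRF2, HMOX1 rose, NQO1 fell, and OSGIN1 and SRXN1 did not pass. HMOX1, which breaks down heme and is repressed by BACH1, was at 4.27, 6.35 and 5.41 CPM in parental and 7.62, 7.91 and 7.56 CPM in GlnIND libraries. The groups did not overlap, with a log2 fold change of 0.53 (standard error 0.16, edgeR adjusted p = 0.0196). Its call was lost without any of the 3 GlnIND libraries (adjusted p = 0.0587, 0.0712 and 0.0591 without GlnIND 1, 2 and 3), with the GC trend removed (0.38, 0.0762) and after removal of the neighbour shift (0.39, 0.0727). NQO1, a quinone reductase often used as a readout of NRF2, was at 172, 205 and 204 CPM in parental and 160, 167 and 157 CPM in GlnIND libraries. Parental 1 was the lowest of its group, close above the highest GlnIND library. The NQO1 log2 fold change was -0.26 (standard error 0.079, edgeR adjusted p = 0.0167). It did not pass without parental 2 (adjusted p = 0.0513), GlnIND 1 (0.0573) or GlnIND 3 (0.0638), under upper-quartile scaling (-0.17, 0.095) or under library totals (-0.11, 0.275).

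OSGIN1, a growth inhibitor induced by oxidative stress, spanned 4.32 to 8.47 CPM in parental and 4.08 to 5.10 CPM in GlnIND libraries, a log2 fold change of -0.52 (standard error 0.24, edgeR adjusted p = 0.0847). SRXN1, the sulfiredoxin that repairs overoxidised peroxiredoxins, spanned 95.7 to 126 CPM and 96.2 to 99.5 CPM, a log2 fold change of -0.18 (standard error 0.094, edgeR adjusted p = 0.123). In both genes parental 1 was the lowest parental library and lay within or below the GlnIND range. Without parental 1 both passed, OSGIN1 at -0.77 (adjusted p = 9.08e-05) and SRXN1 at -0.29 (7.24e-06), and both passed with the GC trend removed, at -0.74 (0.0236) and -0.28 (0.0315). OSGIN1 stood at -0.34 without parental 2 (adjusted p = 0.266). SRXN1 stood at -0.11 without parental 3 (0.307), -0.093 under upper-quartile scaling (0.436) and -0.032 under library totals (0.801).

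The aldo-keto reductases of the AKR1C family, which reduce ketosteroids and lipid-derived carbonyls, had the largest rises of the set. AKR1C3 was at 4.02, 4.18 and 5.61 CPM in parental and 27.1, 26.2 and 23.7 CPM in GlnIND libraries. It was 5.57-fold higher, a log2 fold change of 2.48 (standard error 0.15, edgeR adjusted p = 1.19e-06). AKR1C1 was at 1.34, 1.37 and 1.46 CPM in parental and 5.83, 5.16 and 5.49 CPM in GlnIND libraries. All GlnIND libraries lay far above the parental range, with a log2 fold change of 1.98 (standard error 0.18, edgeR adjusted p = 1.73e-05).

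AKR1C2 had 4, 0 and 4 counts in parental and 22, 29 and 31 counts in GlnIND libraries. Low counts were mostly even in these tables, as when each mate adds its own count, so 6 counts (3 read pairs) was taken as the detection floor and intervals were computed on halved counts. The parental libraries were all under that floor. The ratio of the group sums was 8.06 (exact 95% interval 2.92 to 31.0, counting error only), and the fitted call had an edgeR adjusted p of 0.00122. The coding sequences of the AKR1C1 and AKR1C2 transcripts were identical at 953 of 972 bases, and AKR1C3 matched them at 893 and 887. Reads that fit more than 1 of them may have been lost or moved between rows, so the level of each gene is uncertain. Summed over the 3 genes, the libraries stood at 5.55, 5.55 and 7.28 CPM in parental and 33.9, 32.5 and 30.4 CPM in GlnIND cells. All 3 calls held under the 17 alternative settings.

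The related gene AKR1B1, aldose reductase, was at 49.2, 78.7 and 88.6 CPM in parental and 92.4, 87.2 and 82.8 CPM in GlnIND libraries. Only parental 1 and parental 2 lay below the GlnIND range, and the log2 fold change was 0.28 (standard error 0.17, edgeR adjusted p = 0.199). It was 0.053 without parental 1, 0.43 without parental 3 (adjusted p = 0.04) and 0.83 with the neighbour shift removed (0.00338). AKR1B1 also has 7 annotated pseudogenes by name in GENCODE 29. AKR1B10, an NRF2 target in many carcinomas, had 23 parental and 22 GlnIND counts in all, too few to be tested, with a ratio of 0.72 (exact 95% interval 0.288 to 1.78).

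Genes that supply glutathione were mixed. SLC7A11, the exchange subunit of the cystine-glutamate antiporter, was at 145, 132 and 126 CPM in parental and 40.2, 39.7 and 41.1 CPM in GlnIND libraries. It was 3.33-fold lower, with a log2 fold change of -1.74 (standard error 0.076, edgeR adjusted p = 2.03e-07), and its call held under the 17 alternatives. Glutamate-cysteine ligase, the first and rate-limiting enzyme of glutathione synthesis, has a catalytic and a modifier subunit. The modifier gene GCLM fell, from 96.4 to 109 CPM in parental to 73.6 to 77.1 CPM in GlnIND libraries (log2 fold change -0.44, standard error 0.071, edgeR adjusted p = 0.000541). GCLM passed under library totals at -0.29 and after removal of the GC trend at -0.20.

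The catalytic gene GCLC did not pass. It spanned 41.1 to 49.0 CPM in parental and 50.9 to 51.7 CPM in GlnIND libraries, with no overlap (log2 fold change 0.16, standard error 0.087, edgeR adjusted p = 0.149). It passed without parental 1 (0.19, adjusted p = 0.0179), with the GC trend removed (0.23, 0.0439), under upper-quartile scaling (0.25, 0.0299) and under library totals (0.31, 0.0101). GCLC stood at 0.057 without parental 3 (0.59) and at 0.033 after removal of the neighbour shift (0.778). GSS, which adds glycine in the last step of synthesis, fell by 0.31 in log2 units (standard error 0.078, edgeR adjusted p = 0.00758), from 109 to 129 CPM to 96.7 to 100.3 CPM. GSR, which recycles oxidised glutathione with NADPH, rose by 0.25 (standard error 0.067, edgeR adjusted p = 0.0106), from 55.9 to 58.0 CPM to 66.2 to 68.0 CPM. The GSS call was lost with library totals (-0.16, adjusted p = 0.138). GSR stood at 0.40 under library totals and did not pass without parental 2 (0.06), GlnIND 1 (0.0515) or GlnIND 3 (0.0535).

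GSTP1, a glutathione transferase that conjugates electrophiles, was at 56.9, 66.3 and 66.9 CPM in parental and 124, 126 and 116 CPM in GlnIND libraries. The groups lay far apart, with a 1.93-fold difference and a log2 fold change of 0.95 (standard error 0.081, edgeR adjusted p = 1.15e-05). The median of its neighbours was 0.74, and GSTP1 without that shift stood at 0.21 (adjusted p = 0.0565). MGST1, a membrane-bound transferase and peroxidase, spanned 136 to 143 CPM and 118 to 138 CPM (log2 fold change -0.14, edgeR adjusted p = 0.122). It passed at -0.17 without parental 1 (adjusted p = 0.00423), and in the opposite direction with the neighbour shift removed (0.25, 0.0173). MGST1 stood at -0.049 under upper-quartile scaling, 0.012 under library totals and -0.024 with the GC trend removed.

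**Figure D2:**
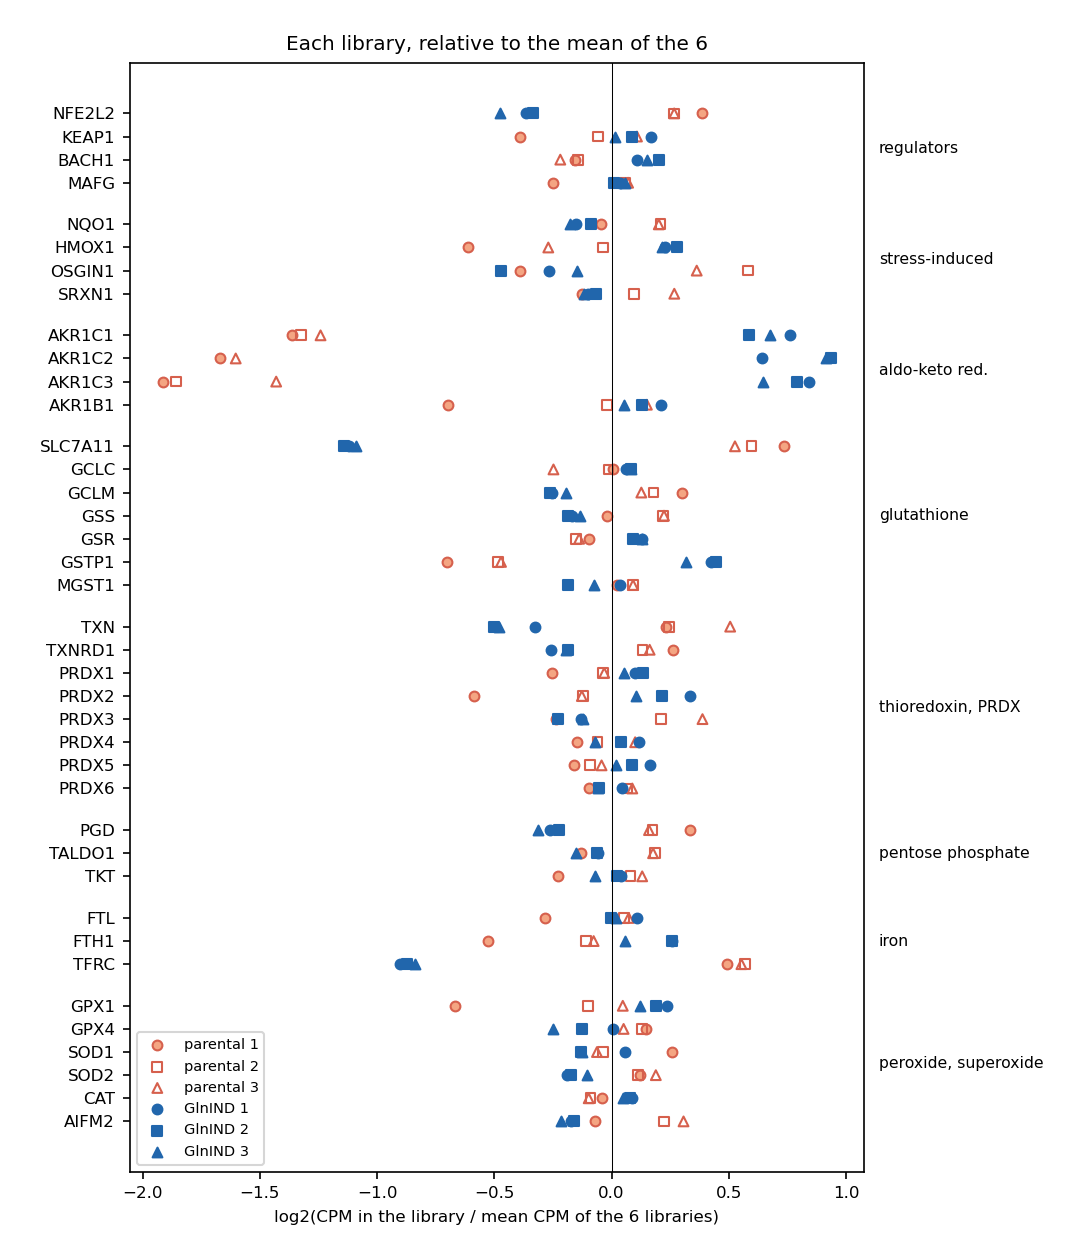
Log2 of the CPM in each library over the mean of the 6 libraries (x axis) for the 39 tested genes (y axis), with orange symbols for parental and blue for GlnIND libraries. AKR1C2 had 0 counts in parental 2, which has no point there. For AKR1B1, GPX1, PRDX2, FTH1 and KEAP1, parental 1 lies to the left of all other libraries.

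In the thioredoxin system, both electron carriers fell and 3 of the 6 peroxiredoxins rose. Of all tested genes 28.4% were called higher and 27.9% lower. TXN, thioredoxin, was at 341, 344 and 412 CPM in parental and 232, 205 and 208 CPM in GlnIND libraries. All GlnIND libraries lay below the parental range (log2 fold change -0.77, standard error 0.088, edgeR adjusted p = 6.8e-05). TXNRD1, the selenoprotein that reduces thioredoxin with NADPH, spanned 549 to 600 CPM in parental and 419 to 440 CPM in GlnIND libraries (log2 fold change -0.40, standard error 0.062, edgeR adjusted p = 0.000438). The medians of the neighbours were -0.48 around TXN and -0.30 around TXNRD1. With that shift removed TXN stood at -0.29 (adjusted p = 0.0221) and TXNRD1 at -0.10 (0.195). TXNRD1 stood at -0.24 under library totals (0.00448). TXN has 7 annotated pseudogenes by name.

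Peroxiredoxins are thiol peroxidases, most of which are reduced by thioredoxin. PRDX2, a cytosolic one, spanned 76.2 to 105 CPM in parental and 123 to 144 CPM in GlnIND libraries (log2 fold change 0.48, standard error 0.12, edgeR adjusted p = 0.00693). PRDX1, its cytosolic relative, rose by 0.20 (standard error 0.073, edgeR adjusted p = 0.0391), from 330 to 385 CPM to 409 to 432 CPM. PRDX5, found in mitochondria and peroxisomes, rose by 0.19 (standard error 0.071, edgeR adjusted p = 0.044), from 71.6 to 77.7 CPM to 81.1 to 89.7 CPM. Each of these rises was smaller than or close to the shift of the neighbours, whose medians were 0.51, 0.26 and 0.38 around PRDX2, PRDX1 and PRDX5. With it subtracted their values were -0.026, -0.058 and -0.19. Without parental 1, PRDX2 stood at 0.33 and PRDX1 at 0.12.

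The PRDX1 and PRDX5 calls were lost under several alternatives. PRDX1 was lost without parental 2 (adjusted p = 0.0618), GlnIND 1 (0.126), GlnIND 2 (0.154) or GlnIND 3 (0.087), with DESeq2 (0.0564), with the replicate block (0.0602) and with the GC trend removed (0.12). PRDX5 was lost without any library but parental 1 (adjusted p between 0.0676 and 0.197), with DESeq2 (0.0929), with RLE factors (0.0596), with the replicate block (0.1) and without the filter on low counts (0.0799). With the GC trend removed its log2 fold change was -0.0022. Library totals gave 0.35 for PRDX1 and 0.34 for PRDX5. PRDX1 shares 24.9% of its exon bases with MMACHC on the opposite strand in GENCODE 29. MMACHC had 371 to 436 counts in parental and 537 to 632 counts in GlnIND libraries, and whether the counting used strand is not given in the sources used here.

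The remaining peroxiredoxins did not pass. PRDX3, the mitochondrial one, spanned 260 to 401 CPM in parental and 261 to 282 CPM in GlnIND libraries (log2 fold change -0.30, standard error 0.13, edgeR adjusted p = 0.0763). Parental 1 was the lowest of the 6 libraries, and without it PRDX3 was lower in GlnIND cells at -0.47 (adjusted p = 1.59e-12). It also passed with DESeq2 (-0.32, adjusted p = 0.0394) and without the filter on low counts (-0.31, 0.0348). PRDX3 stood at -0.18 without parental 3 (0.194) and -0.15 under library totals (0.374). PRDX4, of the endoplasmic reticulum, and PRDX6, which also acts on phospholipid peroxides, stood at log2 fold changes of 0.063 and -0.043 (adjusted p = 0.556 and 0.619 with edgeR). PRDX6 passed without parental 1 (-0.11, adjusted p = 0.0366), and PRDX4 with the neighbour shift removed (-0.33, 0.0107).

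The pentose phosphate pathway makes NADPH, the reductant for both glutathione and thioredoxin. PGD, whose enzyme carries out its second NADPH-producing step, fell from 227 to 256 CPM in parental to 164 to 174 CPM in GlnIND libraries (log2 fold change -0.49, standard error 0.068, edgeR adjusted p = 0.000224). With the neighbour shift removed PGD stood at -0.30 (adjusted p = 0.00544). TALDO1 and TKT, of the branch that returns sugars to glycolysis, stood at log2 fold changes of -0.17 and -0.0041 (adjusted p = 0.123 and 0.974 with edgeR). Parental 1 was the lowest parental library for both. Without it TALDO1 passed at -0.28 (adjusted p = 2.41e-06) and TKT at -0.12 (0.0223). TALDO1 stood at -0.083 under upper-quartile scaling and -0.022 under library totals. TALDO1 also passed with the GC trend removed (-0.31, 0.0147) and TKT with the neighbour shift removed (-0.42, 0.00429).

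Of the iron genes TFRC fell, FTH1 rose and FTL did not pass. TFRC, the transferrin receptor that brings iron into cells, was at 1411, 1485 and 1470 CPM in parental and 536, 546 and 560 CPM in GlnIND libraries. Replicates lay close together in each group, and GlnIND cells were 2.66-fold lower (log2 fold change -1.41, standard error 0.059, edgeR adjusted p = 1.52e-07). The TFRC call held under the 17 alternatives, where its log2 fold change stayed between -1.46 and -1.26. FTH1, the heavy chain of ferritin, was at 96.7, 129 and 132 CPM in parental and 166, 166 and 145 CPM in GlnIND libraries. The groups did not overlap (log2 fold change 0.42, standard error 0.12, edgeR adjusted p = 0.0116).

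The FTH1 value was 0.28 without parental 1. FTH1 did not pass without GlnIND 1 (adjusted p = 0.0579) or GlnIND 2 (0.0585), and after removal of the neighbour shift it stood at -0.025 (0.875). FTL, the light chain, was at 1204, 1521 and 1543 CPM in parental and 1580, 1465 and 1487 CPM in GlnIND libraries. Parental 1 alone lay below the GlnIND range (log2 fold change 0.086, standard error 0.094, edgeR adjusted p = 0.459). With the neighbour shift removed FTL was lower, at -0.37 (0.00889). GENCODE 29 names 25 pseudogenes of FTH1 and 16 of FTL, so reads that fit several copies may be missing from both, and their levels are uncertain. FTH1 also shares 62.4% of its exon bases with BEST1 on the opposite strand, and BEST1 had 3 to 15 counts in each library.

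Of the genes that remove peroxides and superoxide, GPX1 rose, GPX4, SOD2 and AIFM2 fell, and SOD1 and CAT did not pass. GPX4, the selenoenzyme that reduces phospholipid peroxides and restrains ferroptosis, was at 135, 133 and 126 CPM in parental and 122, 112 and 103 CPM in GlnIND libraries. The groups did not overlap but lay close (log2 fold change -0.23, standard error 0.077, edgeR adjusted p = 0.0276). AIFM2, also called FSP1, which regenerates ubiquinol as a lipid antioxidant, fell from 31.7 to 41.1 CPM to 28.6 to 29.8 CPM (log2 fold change -0.34, standard error 0.11, edgeR adjusted p = 0.0193). GPX4 did not pass without parental 2 (adjusted p = 0.066), GlnIND 2 (0.0789) or GlnIND 3 (0.108), with upper-quartile factors (-0.14, 0.14) or library totals (-0.077, 0.385), and after removal of the neighbour shift (-0.18, 0.0734). After removal of the GC trend GPX4 passed at -0.44 (0.00102). AIFM2 did not pass without GlnIND 1, 2 or 3 (adjusted p = 0.0552, 0.0541 and 0.0669), with upper-quartile factors (-0.25, 0.0731) or library totals (-0.19, 0.168), and after removal of the neighbour shift (-0.25, 0.0717).

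GPX1, the cytosolic glutathione peroxidase, spanned 104 to 170 CPM in parental and 179 to 194 CPM in GlnIND libraries (log2 fold change 0.39, standard error 0.15, edgeR adjusted p = 0.0464). Parental 1 was at 0.64 times the mean of parental 2 and 3, and without it the change was 0.20 (adjusted p = 0.000673). GPX1 was lost without parental 2 (0.061) or GlnIND 1, 2 or 3 (0.144, 0.125 and 0.0947), with the GC trend removed (0.17, 0.37) and after removal of the neighbour shift (-0.068, 0.734). SOD2, the mitochondrial superoxide dismutase, fell by 0.30 in log2 units (standard error 0.061, edgeR adjusted p = 0.00239), from 151 to 160 CPM to 123 to 130 CPM. With library totals it stood at -0.14 (adjusted p = 0.071), and with the GC trend removed at -0.17. SOD1, the cytosolic dismutase, spanned 162 to 202 CPM and 155 to 176 CPM (log2 fold change -0.12, edgeR adjusted p = 0.299). SOD1 stood at -0.023 without parental 1, its highest library, and at -0.19, -0.20 and -0.20 without parental 2, parental 3 and GlnIND 1. It stood at -0.030 under upper-quartile scaling, 0.032 under library totals, -0.22 after removal of the GC trend and 0.25 after removal of the neighbour shift (adjusted p = 0.0514). No alternative passed.

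CAT, peroxisomal catalase, spanned 51.9 to 54.0 CPM in parental and 57.5 to 59.0 CPM in GlnIND libraries, with no overlap, and had a log2 fold change of 0.15 (standard error 0.069, edgeR adjusted p = 0.0929). CAT passed under 5 alternatives, at 0.16 without parental 1 (adjusted p = 0.0371), 0.24 under upper-quartile scaling (0.0125), 0.30 with library totals (0.00366), 0.21 after removal of the GC trend (0.027) and 0.47 after removal of the neighbour shift (0.000414). GPX2, a glutathione peroxidase of the gut epithelium, had 1 to 4 counts in each library, under the floor of 6 counts, and was not tested.

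**Figure D3:**
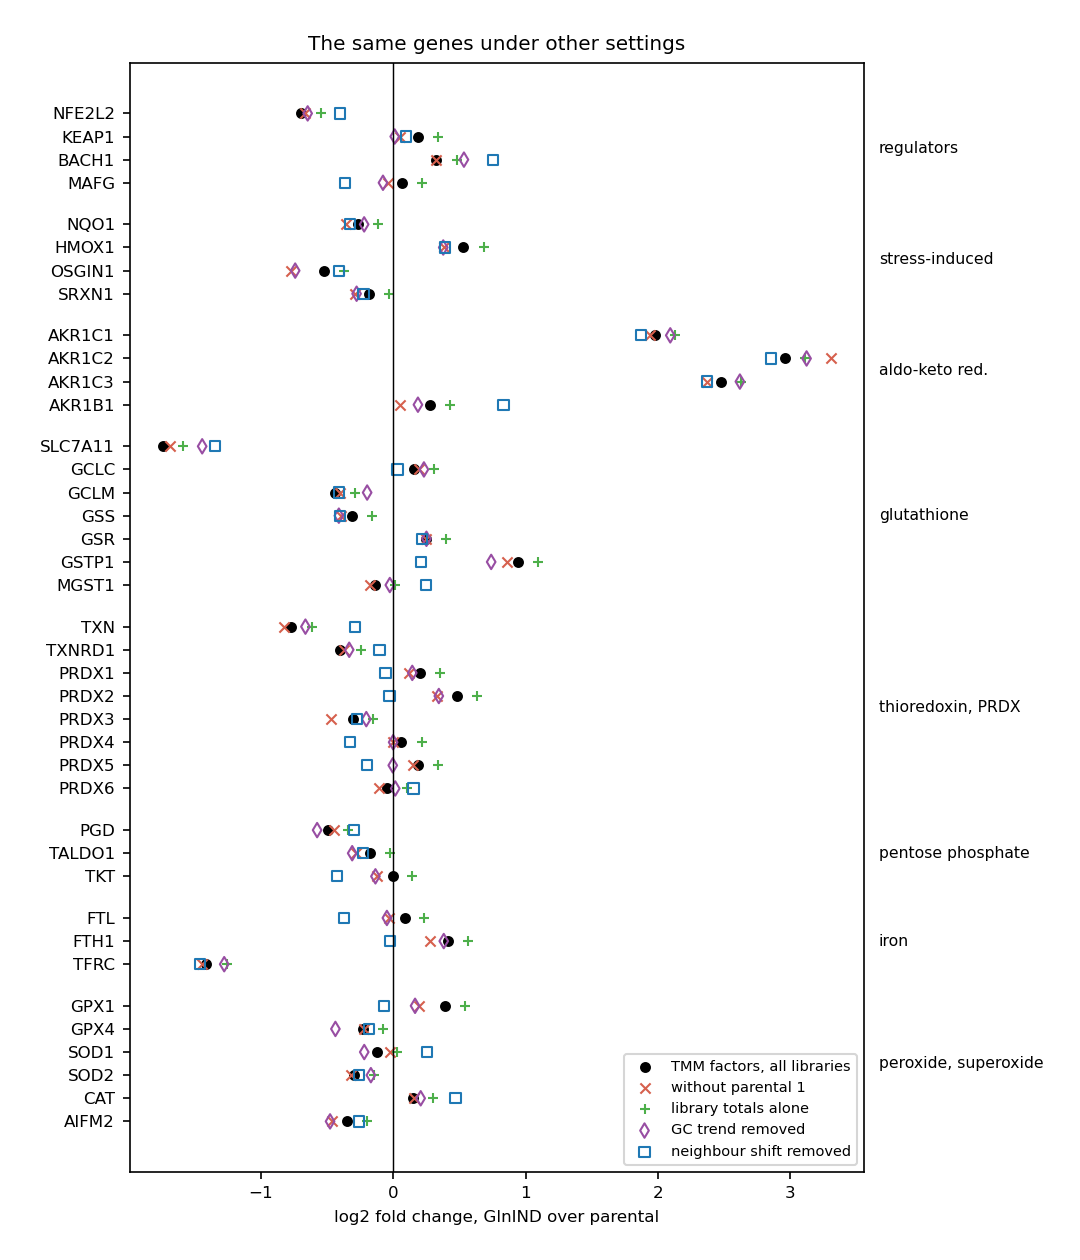
Log2 fold change of GlnIND over parental cells (x axis) for the 39 tested genes (y axis) with TMM factors and all libraries, and under 4 alternatives shown by symbol. The AKR1C genes, SLC7A11, TFRC and NFE2L2 keep their side of 0 under all of them, while PRDX1, PRDX2, PRDX5, FTH1 and GPX1 lie between -0.19 and -0.025 with the neighbour shift removed.

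Other genes of these pathways, 122 in 7 lists, were read in the same fit. Of the 108 that were tested, 30 rose, 38 fell and 40 were not called, so 63.0% were called beside 56.3% of all tested genes. The median log2 fold change over the 108 was -0.11. Of all tested genes 28.4% were called higher and 27.9% lower, to be read beside the counts of each list.

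Among 9 further genes of NRF2 control 1 rose, 4 fell and 4 were not called (median -0.17). CUL3, the ubiquitin ligase scaffold that works with KEAP1, fell from 232 to 152 CPM (means, n = 3 each), a log2 fold change of -0.61 (standard error 0.088, edgeR adjusted p = 0.000273). With the GC trend removed CUL3 stood at -0.37, and without parental 1 at -0.51. NFE2L3, a relative of NRF2, fell by 0.93, and BACH2, a relative of BACH1, rose by 1.04 (edgeR adjusted p = 4.91e-05 and 0.000874). With the neighbour shift removed NFE2L3 stood at -0.63 and BACH2 at 1.08. Without parental 1 NFE2L3 stood at -0.81 and BACH2 at 0.86. SQSTM1, the adaptor p62 that binds KEAP1, was at 340.3 and 349.8 CPM (edgeR adjusted p = 0.667).

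Of 21 tested further NRF2 targets 7 rose, 9 fell and 5 were not called. The median was 0.23, on the opposite side of 0 from the larger count. PTGR1, which reduces reactive lipid carbonyls, fell by 0.93 and stood at -0.41 with its neighbour shift removed. BLVRB, a biliverdin reductase that follows heme oxygenase, rose by 0.81 (edgeR adjusted p = 0.000832) and stood at 0.48 in that setting.

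Among 24 tested further glutathione enzymes 8 rose, 6 fell and 10 were not called (median 0.07). GGT7, of the gamma-glutamyltransferase family, rose from 2.30 to 11.3 CPM (means, n = 3 each), a log2 fold change of 2.29 (standard error 0.15, edgeR adjusted p = 2.37e-06). GGT1 of the same family fell from 4.72 to 1.31 CPM, by 1.85 in log2 units (edgeR adjusted p = 0.00018). GGT5 was not called (-0.20, edgeR adjusted p = 0.171). GSTM4, a glutathione transferase, and GLRX, a glutaredoxin that reduces mixed disulfides with glutathione, rose by 0.87 and 0.81. GSTM2, another transferase, rose from 1.34 to 5.11 CPM, by 1.93 in log2 units (edgeR adjusted p = 5.44e-05). GSTM3 rose by 0.78 (edgeR adjusted p = 0.000446), and GSTM1 was not called (0.089, edgeR adjusted p = 0.501). How far the GSTM sequences match each other was not compared. GGT1 and GSTM2 did not reach the mean of 5 CPM set for named genes. Of 15 tested further thioredoxin and selenoprotein genes 3 rose, 3 fell and 9 were not called (median -0.02). SESN3, a sestrin, rose by 1.25, TXNL1, a thioredoxin-like protein, fell by 1.09, and SELENOS, a selenoprotein of the endoplasmic reticulum, fell by 0.62. With the neighbour shift removed SESN3 stood at 2.23 and TXNL1 at -0.27.

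Of 16 tested iron handling genes outside the set 4 rose, 8 fell and 4 were not called (median -0.24). SLC40A1, ferroportin, the iron exporter, rose from 2.74 to 7.80 CPM (means, n = 3 each), a log2 fold change of 1.51 (standard error 0.18, edgeR adjusted p = 8.96e-05). HFE, which binds the transferrin receptor, and CISD2, an iron-sulfur protein, fell by 1.07 and 0.83. After removal of the neighbour shift HFE stood at -0.70 and CISD2 at -0.51. ACO1, which doubles as an iron regulatory protein controlling TFRC and ferritin messages, fell by 0.77 (edgeR adjusted p = 1.05e-05), and its relative IREB2 was at 96.2 and 106.6 CPM (edgeR adjusted p = 0.106). The median of the neighbours was -0.38 around ACO1. ACO1, IREB2, SQSTM1, GGT1, GGT5, GSTM1, GSTM2 and GSTM3 were named after their values had been seen.

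In the ferroptosis and lipid peroxide list 4 of 14 tested genes rose, 6 fell and 4 were not called (median -0.20). ACSL4, which loads polyunsaturated fatty acids into phospholipids that can be peroxidised, fell from 347 to 179 CPM (means, n = 3 each), a log2 fold change of -0.96 (standard error 0.10, edgeR adjusted p = 4.87e-05). GPX3, a secreted glutathione peroxidase, rose from 48.5 to 109 CPM, a log2 fold change of 1.16 (standard error 0.089, edgeR adjusted p = 5.67e-06). POR, the reductase of microsomal cytochromes P450, fell by 0.71 and stood at -0.043 with its neighbour shift removed (adjusted p = 0.826). Of 9 further NADPH genes 3 rose, 2 fell and 4 were not called (median -0.13, on the opposite side of 0 from the larger count). NNT, the mitochondrial transhydrogenase, rose by 0.68, and with the neighbour shift removed stood at 0.42. IDH2, a mitochondrial dehydrogenase, rose by 0.40, and H6PD, of the endoplasmic reticulum, fell by 0.51. With the neighbour shift removed IDH2 stood at 0.078 (adjusted p = 0.622) and H6PD at -0.22 (0.0951). The IDH2 rise also failed to pass in the fits without parental 3 (adjusted p = 0.0659), without GlnIND 1 (0.0793) or GlnIND 3 (0.0575), and after removal of the GC trend (0.27, 0.081).

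**Figure D4:**
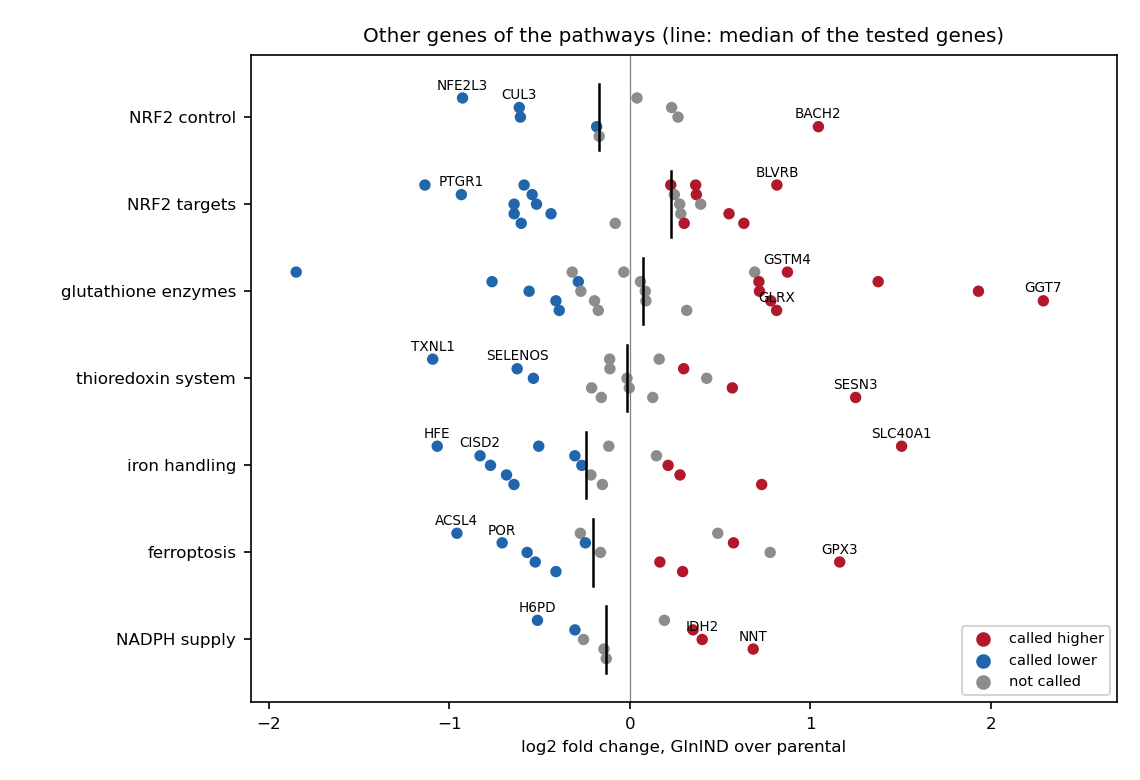
Log2 fold change of GlnIND over parental cells (x axis) for the 108 tested further genes of the 7 lists (y axis), with 1 point per gene coloured by call and a line at each list's median. GGT7 at 2.29, GSTM2 (not labelled) at 1.93 and SLC40A1 at 1.51 stand at the right. GGT1 (not labelled) stands at the left at -1.85, and the iron handling median lies at -0.24.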

How the data were processed

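PolyA RNA was sequenced in 6 libraries, 3 per group. The values are whole-number counts of reads for each gene symbol, as deposited by the authors without normalization. STAR, featureCounts, FastQC and DESeq, with build hg19, are named in the submitters' processing notes, while versions, annotation, strand setting and handling of multiply mapped reads are not given in the sources used here. Replicate numbers follow the per-library tables, and the deposited matrix holds the same counts with numbers 1 and 3 exchanged in each group. Counts were tested with edgeR 4.0.16 (R 4.3.3; glmQLFit and glmQLFTest, two-sided, TMM, filterByExpr with a minimum count of 10 and total of 15, group as the only term). The fit covered 13949 genes, with p-values adjusted over all of them. A permutation test of 3 against 3 cannot go below p = 0.1.

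Members and lists were chosen with earlier results of these data known. Values in every library are given for NFE2L2, KEAP1, BACH1, NQO1, HMOX1, GPX4 and called members with an absolute log2 fold change of at least 0.5. From each further list the rule named up to 3 called, non-overlapping genes with a mean of at least 5 CPM and the largest change. A gene that this rule named is not reported here. Some members outside this rule are also given by library. Alternatives were RLE, upper-quartile and total scaling, 2 other filters, each library left out, the replicate block, DESeq2 1.42.0, limma-voom (limma 3.58.1), an adjusted p under 0.01, removal of the median change of up to 40 neighbouring genes (gene order from RefSeq, 98.8% of tested genes placed), and removal of a GC trend (GENCODE 29 transcripts, 96.0% of tested genes). Removed shifts were treated as known. Coding sequences compared were the longest open reading frames of GENCODE 29 transcripts. The fit was also run on simulated data with known changes, built with the dispersions fitted to these libraries. It called 43.4% of simulated log2 changes of 0.5 and 88.5% of those of 1 in the right direction, with 7 false calls. Only 100 genes were changed at each size, against 7853 genes called in the data, so the adjustment of p-values was stricter in the simulation. These rates therefore do not carry over to the data. A gene that did not pass can still differ.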

Additional observations from a re-analysis of the deposited data

How the results depend on the processing

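Of the 24 called genes of the set, 15 were called in every fit that left out 1 library, and 10 under all 17 alternatives (NFE2L2, BACH1, AKR1C1, AKR1C2, AKR1C3, SLC7A11, GCLM, TXN, PGD and TFRC). The count of higher genes, 12 with all libraries, ranged from 6 to 14 when a library was left out and was 6 at an adjusted p under 0.01. The count of lower genes, 12, ranged from 9 to 19 (19 without parental 1) and was 7 with library totals. Over all tested genes the higher count was 3965, 3151 to 4601 without 1 library, and 2855 at an adjusted p under 0.01. The lower count over all tested genes was 3888, 3337 to 4679 without 1 library (4679 without parental 1), and 2810 with library totals. For the further genes of the pathways, leaving out 1 library moved 30 higher to 19 (without GlnIND 3) to 36, and 38 lower to 33 to 49. Library totals gave 40 higher and 31 lower of these genes, and upper-quartile factors 37 and 31. Removal of the neighbour shift gave 25 and 30, and an adjusted p under 0.01 gave 20 and 30. Fits that left out 1 library held fewer libraries, and the cause of these differences was not tested.

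With the neighbour shift removed, log2 fold changes turned for MAFG (-0.36), MGST1 (0.25), PRDX1 (-0.058), PRDX2 (-0.026), PRDX4 (-0.33), PRDX5 (-0.19, adjusted p = 0.0461), PRDX6 (0.15), FTL (-0.37), FTH1 (-0.025), GPX1 (-0.068) and SOD1 (0.25). With the GC trend removed they turned for MAFG (-0.076), PRDX5 (-0.0022), PRDX6 (0.017) and FTL (-0.047). Library totals turned MGST1 (0.012), PRDX6 (0.11), TKT (0.15) and SOD1 (0.032), and upper-quartile factors PRDX6 (0.047) and TKT (0.086). Leaving out 1 library gave MAFG -0.040 to 0.10, PRDX4 -0.0030 to 0.11 and FTL -0.030 to 0.13, each lowest without parental 1. TKT ranged from -0.12 (without parental 1) to 0.043 (without parental 3), and turned with the replicate block (0.0033) and with limma-voom (0.0041).

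No pattern shared by libraries of the same replicate number was seen, which cannot tell whether libraries were prepared in pairs. Deviations from the group means correlated at -0.063, 0.03 and -0.037 for numbers 1, 2 and 3, and parental 1 correlated best with GlnIND 3 (0.076). With the number as a replicate block 10 genes of the set were higher and 12 lower, and 26 and 34 of the further genes. Depth limits AKR1C2, AKR1B10 and GPX2, whose counts lie near or under the floor of 6 in at least 1 group.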
